A study of Mus musculus with 4 samples.

Results

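To describe how lung tumors distribute the work of lipid handling over their cells, the 10 genes Cd36, Lpl, Fabp1, Fabp4, Fabp5, Plin2, Pparg, Abcg1, Abca1 and Apoe were followed through single-cell RNA-seq of total viable cells. They were taken by gene symbol from the 31055 features of the deposited matrix, and all 10 were present. These genes and the further lists below were chosen with earlier results of these data known. Counts of them beside the share of all genes are therefore descriptions. The cells came from tumors of 4 female mice. All carried Lkb1XTR/XTR. At Rosa26, the 2 Restored mice were Rosa26LSL-tdTomato/FLPo-ERT2, and the 2 Non-Restored mice had Rosa26LSL-tdTomato without FLPo-ERT2. Tumors grew for 16 weeks after intratracheal Lenti-Cre, a virus that switched on the tdTomato reporter and inverted the XTR gene trap, which then captures splicing and truncates the transcripts of Lkb1 (gene symbol Stk11). All 4 mice then received tamoxifen in 4 mg doses for 2 weeks, which lets FLPo-ERT2 excise the trap. FLPo-ERT2 was driven from the Rosa26 locus, which is active in most cell types, so the allele itself does not restrict excision to tumor cells. The study's methods give the mice as young adults when tumors were started. Tumors were microdissected, digested with collagenase IV, dispase and trypsin, and sorted only on exclusion of DAPI, a dye that enters dead cells.

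All mice were held in 1 matrix of 20351 cells and 58624795 unique molecular identifiers (UMIs, each an mRNA copy counted once), with a median of 1960 UMIs per cell, and no file used here maps a cell to a mouse or gives its barcode. Restored and Non-Restored tumors were therefore not compared, the targeted gene was not checked per mouse, and barcodes shared between libraries were not counted. The matrix counted as 1 sample, so no test and no p-value is given. Every interval is an exact 95% interval that covers counting error only. Since the spread between mice is not known, a class to which 1 mouse gave most cells could carry that mouse's own level.

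Cells take up fatty acids through surface receptors such as CD36, often after lipoprotein lipase (LPL) has freed them from triglyceride in lipoproteins. Inside the cell, fatty acid binding proteins (FABPs) carry them, perilipin 2 (PLIN2) coats the droplets that store them, and the fatty acid sensing nuclear receptor PPARγ drives many of these genes. Surplus cholesterol leaves through the transporters ABCA1 and ABCG1 to acceptors such as apolipoprotein E (APOE). In the lung, alveolar macrophages clear surfactant lipid and depend on PPARγ, while capillary endothelium passes fatty acids from blood to tissue.

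On mm10 (GENCODE vM21), Fabp4 and Fabp5 lie on chromosome 3, 187480 bases apart and on opposite strands. Fabp1 and Pparg lie on chromosome 6, Plin2 and Abca1 on chromosome 4, Cd36 on 5, Apoe on 7, Lpl on 8 and Abcg1 on 17. Pparg overlaps the antisense gene Gm44079, which held 1 UMI in the matrix, and Abcg1 contains the rRNA gene Gm25447, which is not a feature of the matrix. Each of the 3 Fabp genes has 4 exons in its longest coding transcript, while that of Abca1 has 50. RefSeq (GRCm38.p6) promoter windows of 250 bases before a start were on hand for 6 of the 10 genes. The first window listed is shown 5′ to 3′ for 5 genes whose levels stood at opposite ends below: Fabp1 and Plin2, highest in alveolar macrophages; Cd36, highest in endothelium; and Apoe and Abca1, low in alveolar macrophages. Capitals mark any match, on either strand, to 4 short motifs. AGGTCA is the half-site of nuclear receptors. GAGGAA is the core bound by the myeloid factor PU.1. TATAAA is the TATA box, and the GC box was searched as GGGCGG. The Fabp1 window is shown without its last 52 bases and the Plin2 window without its last base, since a longer GENCODE transcript begins there.

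Fabp1 (chr6:71199629-71199826, plus strand): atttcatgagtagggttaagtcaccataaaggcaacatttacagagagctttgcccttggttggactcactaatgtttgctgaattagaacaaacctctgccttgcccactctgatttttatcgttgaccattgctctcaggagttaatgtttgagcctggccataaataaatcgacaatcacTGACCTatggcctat
Plin2 (chr4:86670061-86670309, minus strand): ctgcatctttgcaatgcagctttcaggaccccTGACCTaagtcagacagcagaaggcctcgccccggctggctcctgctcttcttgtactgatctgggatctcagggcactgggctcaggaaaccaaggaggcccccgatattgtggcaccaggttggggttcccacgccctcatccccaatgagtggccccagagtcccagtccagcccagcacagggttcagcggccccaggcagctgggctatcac
Cd36 (chr5:17835897-17836146, minus strand): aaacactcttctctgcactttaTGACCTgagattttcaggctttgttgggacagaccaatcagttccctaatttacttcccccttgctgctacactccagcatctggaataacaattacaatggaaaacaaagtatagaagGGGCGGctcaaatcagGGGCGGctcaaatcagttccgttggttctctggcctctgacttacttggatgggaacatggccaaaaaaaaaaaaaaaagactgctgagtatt
Apoe (chr7:19699189-19699438, minus strand): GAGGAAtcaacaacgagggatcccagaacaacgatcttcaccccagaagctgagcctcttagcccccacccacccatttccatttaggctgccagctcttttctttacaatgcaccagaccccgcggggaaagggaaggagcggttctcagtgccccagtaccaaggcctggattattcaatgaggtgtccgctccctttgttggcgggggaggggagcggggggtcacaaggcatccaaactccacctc
Abca1 (chr4:53159896-53160145, minus strand): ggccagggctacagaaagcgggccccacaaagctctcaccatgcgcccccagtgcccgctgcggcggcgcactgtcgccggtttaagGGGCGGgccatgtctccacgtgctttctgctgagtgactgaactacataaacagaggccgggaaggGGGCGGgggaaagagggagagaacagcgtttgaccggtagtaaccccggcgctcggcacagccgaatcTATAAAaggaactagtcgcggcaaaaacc

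Fabp1 had AGGTCA on the other strand 67 bases before its RefSeq start, and in the bases not shown again 9 bases before it, with GAGGAA at 45 and TATAAA at 30. Plin2 had AGGTCA on the other strand at 218 and Cd36 at 228 bases before the start, and the Cd36 stretch also held GGGCGG at 109 and 93. The Cd36 window lies between exons of longer GENCODE transcripts that begin further upstream. The Apoe stretch held only GAGGAA, at 250, and that of Abca1 held TATAAA at 29 and GGGCGG at 163 and 97. Of 32851 RefSeq windows of the same length, 14.0% held AGGTCA, 23.3% GAGGAA, 12.4% TATAAA and 32.7% GGGCGG, so each of these short motifs is common. A match is a description of the letters, and a missing match says only that they are not in that window.

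Cells were assigned to classes by markers that included none of these genes, and each class name below means cells that resemble that type by their markers. After filtering, 19488 cells were kept and 15871 of them (81.4%) passed a gate, 2582 at the smallest lead allowed. Alveolar macrophages numbered 1972, C1q-high macrophages 1295, monocytes 587 (428 classical, 159 non-classical) and endothelial cells 1800. Levels are given as CPM, the UMIs of a gene summed over a class per 1000000 UMIs of that class. The summed alveolar macrophage markers reached 30749 CPM in their own class, most of it Chil3, and 283 in C1q-high macrophages, 1140 in monocytes and 283 in endothelium. Ear10 was nearly absent from the alveolar macrophage gate, with 3 UMIs, and Krt79 was low at 17.5 CPM. C1q-high macrophage markers summed to 15667 CPM in their own class and 47.0 in alveolar macrophages, and endothelial markers to 9324 CPM in endothelium and at most 22.5 in the macrophage and monocyte classes. Mean depth differed, from 5381 UMIs per alveolar macrophage to 2093 per endothelial cell.

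**Figure D1:**
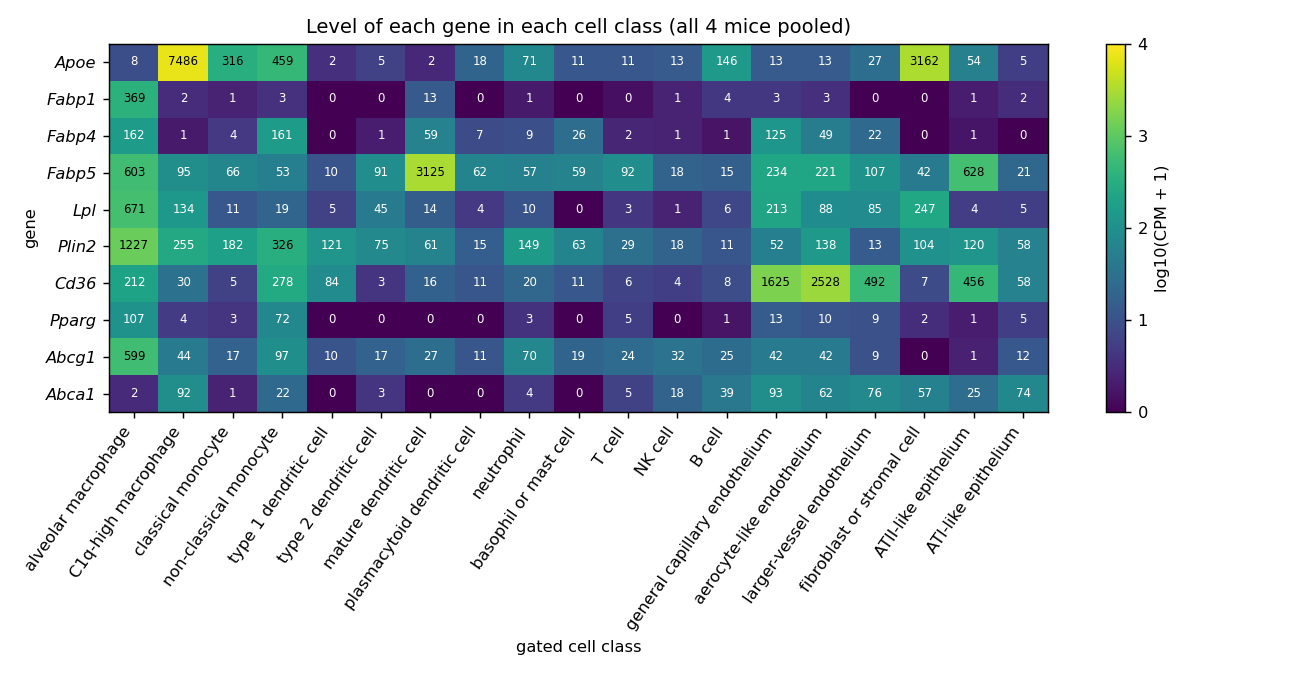
Level of each of the 10 genes (rows) in 19 gated cell classes (columns), all mice pooled. Cells of the grid give the rounded CPM and colour gives log10(CPM + 1). Fabp1 is above 50 CPM only in alveolar macrophages, while Fabp5 and Plin2 reach 50 CPM in 14 of the 19 classes each.

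The first comparison asked how the 2 macrophage populations differ. Of the 10 genes, 8 were at least 2-fold higher in alveolar macrophages, against 16.0% of the 9747 genes with at least 50 UMIs over both classes, and the other 2, Apoe and Abca1, were higher in C1q-high macrophages, against 8.52%. None lay within 2-fold. The median log2 ratio of alveolar over C1q-high macrophages was 2.74 for the 10 genes and 0.27 for all genes. The fatty acid carriers, Pparg and the cholesterol transporter Abcg1 stood on one side, and Apoe and the transporter Abca1 on the other.

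The uptake genes Cd36 and Lpl were both higher in alveolar macrophages. Cd36, a scavenger receptor for fatty acids and oxidized lipoproteins, had 212 CPM against 29.9 in C1q-high macrophages, a log2 ratio of 2.82 (2.59 to 3.07). Lpl, the enzyme that releases fatty acids from triglyceride, had 671 CPM against 134, a log2 ratio of 2.32 (2.21 to 2.43). Lpl was thus lower but not absent in C1q-high macrophages, and 8.65% of them held an Lpl UMI after each cell was thinned to 1000 UMIs, against 0.17% of T cells.

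The 3 FABP genes separated the macrophages to different degrees. Fabp1, the liver-type carrier, gave 3921 UMIs (369.5 CPM) in alveolar macrophages and 12 UMIs (2.27 CPM) in C1q-high macrophages, a 163-fold difference (log2 7.35, 6.54 to 8.30). Fabp4, the adipocyte and macrophage carrier, gave 162 CPM against 0.95 CPM from 5 UMIs (log2 7.42, 6.19 to 9.04). Fabp5, the epidermal-type carrier, differed less, with 603 against 95.4 CPM (log2 2.66, 2.53 to 2.79). For Fabp4 the interval of C1q-high macrophages (0.31 to 2.21 CPM) overlapped that of T cells, at 1.68 CPM (0.92 to 2.82). For Fabp1 the interval of C1q-high macrophages (1.17 to 3.97 CPM) only just met that of T cells, at 0.48 CPM (0.13 to 1.23) from 4 UMIs. That narrow overlap does not show equal levels. Fabp5, in contrast, had UMIs in every class. No Fabp4 UMI was left in 1283 C1q-high macrophages at 1000 UMIs, which allows a share of up to 0.23% of cells with a UMI at that depth and does not limit the share that expressed the gene.

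Plin2, the droplet coat protein, reached 1227 CPM in alveolar macrophages and 255 CPM in C1q-high macrophages (log2 2.27, 2.18 to 2.35). Pparg, the nuclear receptor that alveolar macrophages need for their development, had 107 against 4.16 CPM, a 25.7-fold difference (log2 4.68, 4.08 to 5.36). The transporter Abcg1, which exports cholesterol to high-density lipoprotein, had 599 against 44.5 CPM (log2 3.75, 3.56 to 3.94). All 3 were thus higher in alveolar macrophages by more than their counting error.

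Apoe and Abca1 went the other way. Apoe reached 7486 CPM in C1q-high macrophages, from 39564 UMIs, and 8.10 CPM in alveolar macrophages, from 86 UMIs, a 924-fold difference (log2 -9.85, -10.17 to -9.55). Abca1, which loads cholesterol onto lipid-poor apolipoproteins, had 92.3 CPM in C1q-high macrophages and 1.98 CPM, or 21 UMIs, in alveolar macrophages (log2 -5.54, -6.25 to -4.92). The Apoe level of alveolar macrophages overlapped that of T cells, 11.0 CPM (8.90 to 13.5), and only 0.42% of them held an Apoe UMI at 1000 UMIs, against 0.70% of T cells, so it did not exceed what T cells showed. The 2 cholesterol transporters therefore had opposite highest classes among the macrophages.

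**Figure D2:**
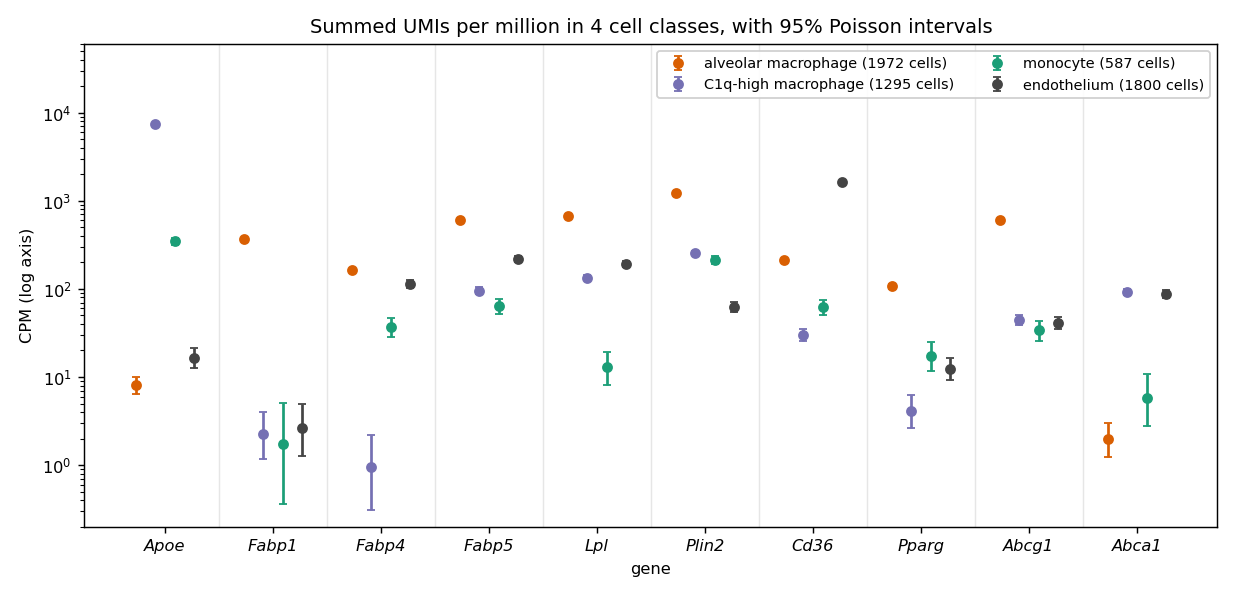
CPM on a log axis (vertical) of each of the 10 genes (horizontal) in the 4 main classes, with 95% Poisson intervals as bars. Alveolar macrophages (1972 cells) hold the highest point for 7 genes, C1q-high macrophages for Apoe and endothelium for Cd36, and the Abca1 points of C1q-high macrophages and endothelium overlap.

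Against monocytes, which replenish many tissue macrophages, alveolar macrophages were higher for 8 of 9 genes with enough UMIs, against 22.1% of 9251 genes, and Apoe alone was higher in monocytes, against 8.60%. Fabp1 differed 211-fold, from 3 UMIs in monocytes (log2 7.72, 6.17 to 10.00), and Lpl 52.3-fold, at 12.8 CPM in monocytes (log2 5.71, 5.11 to 6.38). Abcg1 was 17.7-fold higher in alveolar macrophages, Fabp5 9.48-fold, Pparg 6.11-fold, Plin2 5.78-fold, Fabp4 4.40-fold and Cd36 3.39-fold. These ratios take classical and non-classical monocytes together. In non-classical monocytes alone, Cd36 was higher than in alveolar macrophages, as given below. Apoe was 42.7-fold higher in monocytes, at 346 CPM (log2 -5.42, -5.76 to -5.09). The monocytes also held 761 CPM of C1q-high macrophage markers, with 1 of 10 at 0 and against 47.0 CPM in alveolar macrophages, and without cells that held at least 2 markers of another of these kinds of cell the Apoe log2 ratio was -4.76. Abca1 was rare in both, with 10 UMIs in monocytes, and had too few UMIs to be counted.

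Between C1q-high macrophages and monocytes, of 9 genes, 3 were higher in C1q-high macrophages (against 12.1% of 7977 genes), 3 in monocytes (against 8.99%) and 3 lay within 2-fold. Apoe was 21.6-fold higher in C1q-high macrophages, Abca1 15.8-fold and Lpl 10.5-fold. Fabp4 was 38.8-fold higher in monocytes (log2 -5.28, -6.95 to -3.98), Pparg 4.20-fold from 22 and 30 UMIs, and Cd36 2.09-fold. Without cells that held a TdTomato UMI, only 1 gene was counted as higher in monocytes. That count also needs at least 50 UMIs over both classes. Of the 51 ratios past 2-fold that had a value in that setting, none turned around. The only one that fell under 2-fold was a Plin2 ratio between endothelial types. Per cell the Cd36 log2 ratio was -0.58, under 2-fold. Fabp5, Plin2 and Abcg1 stayed within 2-fold, with log2 ratios of 0.59 (0.28 to 0.90), 0.27 (0.10 to 0.44) and 0.39 (-0.03 to 0.84).

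The monocyte values for Fabp4, Cd36 and Pparg came mostly from the non-classical, patrolling subset. Cd36 had 100 UMIs in 159 non-classical monocytes (278 CPM) and 7 UMIs in 428 classical monocytes (5.16 CPM), a log2 ratio of 5.75 (4.66 to 7.10). Fabp4 had 58 against 5 UMIs, or 161.4 against 3.69 CPM (log2 5.45, 4.15 to 7.13). Pparg had 26 against 4 UMIs, too few for the count but with an interval of 3.09 to 6.60 around a log2 ratio of 4.62. Classical monocytes hardly showed these 3 genes. In non-classical monocytes the levels of Fabp4 and Pparg overlapped those of alveolar macrophages. The Cd36 level of non-classical monocytes (226 to 339 CPM) lay above that of alveolar macrophages, at 212 CPM (203 to 221).

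Abcg1 followed the same direction (97.4 against 17.0 CPM, log2 2.52, 1.72 to 3.35). Apoe (459 against 316 CPM, log2 0.54, 0.27 to 0.80) and Plin2 (326 against 182 CPM, log2 0.84, 0.51 to 1.16) were within 2-fold. Lpl and Fabp1 gave 7 UMIs and 1 UMI in non-classical monocytes. The alveolar macrophage markers summed to 838 CPM in non-classical and 1220 CPM in classical monocytes, most of it Chil3 in the latter (264 against 1128 CPM). Of the 10 markers, 5 were at 0 in non-classical monocytes, of which Ear1, Ear10 and Krt79 were at 0 in classical monocytes too. Ear2 went the other way, at 537 CPM in non-classical and 73.8 CPM in classical monocytes, as did Plet1 and Siglecf, with 9 against 6 UMIs and 2 against 1 UMI in fewer cells. The part of macrophage RNA in these differences was not tested. Endothelial markers summed to 22.3 CPM in non-classical monocytes, with 5 of 10 at 0 (Cldn5, Ramp2, Tie1, Clec14a and Robo4), and to 19.2 CPM in classical monocytes. Without cells that held markers of another of these classes, Cd36 and Fabp4 kept their direction and stayed past 2-fold. In that setting the Plin2 log2 ratio rose to 1.27, so that it also passed 2-fold.

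Endothelium was the class of Cd36 and, with C1q-high macrophages, of Abca1. Against alveolar macrophages, 3 of 10 genes were higher in endothelium (against 21.7% of 10337 genes), 6 were higher in alveolar macrophages (against 18.0%), and Fabp4 lay within 2-fold. Cd36 reached 1631 CPM in endothelium, 7.70-fold above alveolar macrophages (log2 -2.94, -3.01 to -2.87). Abca1 was 44.4-fold higher in endothelium, at 87.9 CPM. Apoe was 2.03-fold higher in endothelium, at 16.5 CPM, a difference that fell under 2-fold in several alternatives and turned around per cell (log2 0.34), and both levels lay near that of T cells.

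On the alveolar macrophage side, Fabp1 was 139-fold, Plin2 19.8-fold, Abcg1 14.6-fold and Pparg 8.57-fold higher than in endothelium. Lpl was 3.53-fold higher (671 against 190 CPM) and Fabp5 2.76-fold (603 against 218 CPM). Fabp4 was 162 CPM in alveolar macrophages and 114 CPM in endothelium, a log2 ratio of 0.51 (0.35 to 0.66). Similar summed levels of Fabp4 hid a different spread over cells: at 1000 UMIs per cell, 11.6% of alveolar macrophages but 3.75% of endothelial cells (61 of 1626) held a Fabp4 UMI. The endothelial UMIs had a variance 6.26 times their mean and up to 19 in a cell, against 1.5 times and up to 5 in alveolar macrophages.

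Relative to endothelium, C1q-high macrophages were higher for 2 of 9 genes (against 13.5% of 9579 genes), lower for 4 (against 27.7%) and within 2-fold for 3. Apoe was 455-fold and Plin2 4.11-fold higher in C1q-high macrophages. Fabp4 was 120-fold, Cd36 54.5-fold, Pparg 3.0-fold and Fabp5 2.29-fold higher in endothelium, but with Louvain clusters in place of the gates the Fabp5 log2 ratio was 0.088. Counted as UMIs per cell, 4 genes were higher in C1q-high macrophages and 2 in endothelium, with the Pparg log2 ratio at -0.62. Abca1 and Abcg1 did not differ beyond counting error, with log2 ratios of 0.07 (-0.13 to 0.28) and 0.12 (-0.18 to 0.42), and Lpl differed by -0.50 (-0.65 to -0.35). Without cells that held markers of another of these classes the Lpl log2 ratio was -1.09, past 2-fold.

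Monocytes were higher than endothelium for 2 of 9 genes, Apoe (21.0-fold) and Plin2 (3.42-fold), against 12.9% of 8477 genes. They were lower for 5, against 29.2%. Cd36 was 26.1-fold, Abca1 15.1-fold, Lpl 14.8-fold, Fabp5 3.44-fold and Fabp4 3.09-fold higher in endothelium. Pparg and Abcg1 lay within 2-fold, with intervals that included 0 (log2 0.49, -0.22 to 1.18, and -0.27, -0.73 to 0.17). The median log2 ratio was -1.63 for the 9 genes and -0.39 for all genes.

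Within endothelium, the capillary types were compared with each other and with larger vessels. Cd36 fell in the order aerocyte-like, general capillary and larger-vessel cells, at 2528 CPM (2371 to 2692), 1625 CPM (1574 to 1678) and 492 CPM (404 to 593), with no overlap of the intervals. Lpl was instead highest in general capillary cells, at 213 CPM against 88.2 in aerocyte-like cells (log2 -1.27, -1.82 to -0.77) and 85.0 (51.2 to 132.7) in larger vessels. Fabp4 showed the same order of capillary types, 125 against 49.3 CPM (log2 -1.35, -2.10 to -0.68), whereas Fabp5 did not differ (234 and 221 CPM, log2 -0.08, -0.43 to 0.25). The RNAs of the receptor and of the lipase were thus highest in different capillary types.

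Abca1 was 93.0, 62.3 and 76.0 CPM in the 3 endothelial types, with overlapping intervals. Plin2 was higher in aerocyte-like cells (138 against 52.3 CPM, log2 1.39, 0.90 to 1.87), yet the same cells held 978 CPM of alveolar macrophage markers against 192 CPM in general capillary cells. The part of macrophage RNA in the Plin2 difference was not tested, and without cells that held markers of another of these classes the log2 ratio was 0.66, under the 2-fold line. In that setting the Fabp4 log2 ratio was -0.89, and without upper cut-offs on genes and mitochondrial share that of Lpl was -0.49.

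**Figure D3:**
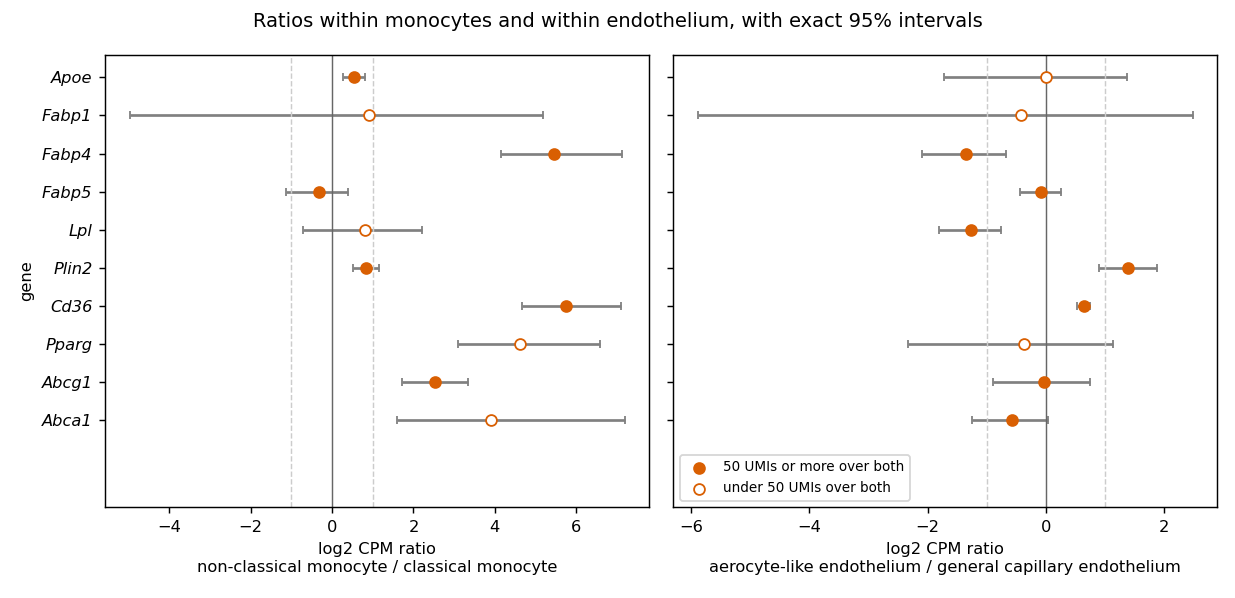
Log2 CPM ratio (horizontal) of each gene (vertical) between non-classical and classical monocytes (left) and between aerocyte-like and general capillary endothelium (right), with exact 95% intervals. Open points rest on fewer than 50 UMIs over both classes; Cd36 and Fabp4 lie above 5 in monocytes, and Lpl and Fabp4 lie below -1 in endothelium.

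Several other classes carried 1 of these genes at a high level. Fabp5 was highest in mature dendritic cells, at 3125 CPM (2980 to 3276), 34.2-fold above type 2 dendritic cells at 91.4 CPM and far above type 1 dendritic cells with 4 UMIs. Of the 123 mature dendritic cells, 75.6% (67.0 to 82.9) held a Fabp5 UMI at 1000 UMIs. Alveolar macrophage markers summed to 86.3 CPM in these cells, with 5 of 10 at 0. Alveolar type II (ATII)-like epithelium followed with 628 CPM, which overlapped alveolar macrophages, while alveolar type I (ATI)-like cells had 20.7 CPM.

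The gene order in epithelium differed from that in macrophages. ATII-like cells held 456 CPM of Cd36, which overlapped larger-vessel endothelium and lay above non-classical monocytes. Of these cells 35.1% (31.4 to 38.9) had a UMI, while endothelial markers summed to 76.6 CPM there. Lpl, Pparg and Abcg1 were nearly absent from ATII-like cells, with 13, 3 and 4 UMIs. Abca1 was higher in ATI-like than ATII-like cells, at 73.6 against 25.4 CPM (log2 1.53, 0.89 to 2.15), in contrast to Cd36, which was 57.5 against 456 CPM.

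Fibroblast or stromal cells came second for Apoe, at 3162 CPM (2996 to 3336), and second for Lpl, at 247 CPM, which overlapped general capillary cells. No Abcg1 UMI was seen in the 119 stromal cells. B cells held 146.5 CPM of Apoe and 39.0 CPM of Abca1, and 6.66% of them (5.49 to 7.99) had an Apoe UMI at 1000 UMIs against 0.70% of T cells. Neutrophils held 149.5 CPM of Plin2 and 70.5 CPM of Abcg1, the latter overlapping non-classical monocytes.

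Shares of cells with a UMI were compared after every cell was thinned to 1000 UMIs, which kept 1925 alveolar macrophages, 1283 C1q-high macrophages, 577 monocytes and 1626 endothelial cells. Of alveolar macrophages, 67.9% (65.8 to 70.0) held Plin2, 43.1% Abcg1, 40.2% Lpl, 31.9% Fabp5, 22.2% Fabp1, 16.8% Cd36, 11.6% Fabp4 and 8.83% Pparg. T cells, taken as a class with low levels of most of these genes, held 2.20% Plin2, 2.08% Abcg1 and 6.64% Fabp5, and 0.70% or less of the others, at a median of 1640 UMIs before thinning against 5455 in alveolar macrophages. Without thinning, the alveolar macrophage shares were 96.3% for Plin2, 86.9% for Abcg1, 76.3% for Lpl, 70.2% for Fabp5 and 48.0% for Fabp1. Plin2 was thus near universal in these cells, while Fabp1 UMIs were missing from about as many cells as held them even at full depth.

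Apoe was held by 52.1% (49.4 to 54.9) of C1q-high macrophages at 1000 UMIs and by 57.9% without thinning, so more depth added little. Its UMIs were very uneven. The mean was 9.29 per cell, the variance 22.0 times the mean and the highest cell 103, and the 128 cells with the most held 45.7% of all Apoe UMIs. For comparison, the variance of Plin2 in alveolar macrophages was 1.25 times its mean, that of Fabp1 2.30 times and that of Fabp5 2.13 times.

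Cd36 was held by 72.0% (69.7 to 74.1) of endothelial cells, with 87.4% of aerocyte-like, 73.8% of general capillary and 27.6% of larger-vessel cells. In non-classical monocytes Cd36 was held by 19.5% (13.5 to 26.6), Fabp4 by 14.3% (9.17 to 20.8) and Pparg by 9.09% (5.06 to 14.8), against 0.24%, 0.47% and 0.24% of classical monocytes. Fabp5 shares of C1q-high macrophages (7.25%, 5.89 to 8.81) and monocytes (5.89%, 4.11 to 8.14) overlapped that of T cells (6.64%, 5.90 to 7.44) while B cells held 0.93%, so T cells are no floor for this gene. Per cell, alveolar macrophages held a mean of 2.43 of the 10 genes, C1q-high macrophages 1.05, endothelium 1.24, non-classical monocytes 1.08, classical monocytes 0.43 and T cells 0.13. At least 3 of the genes were detected in 46.5% of alveolar macrophages and 6.39% of C1q-high macrophages.

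**Figure D4:**
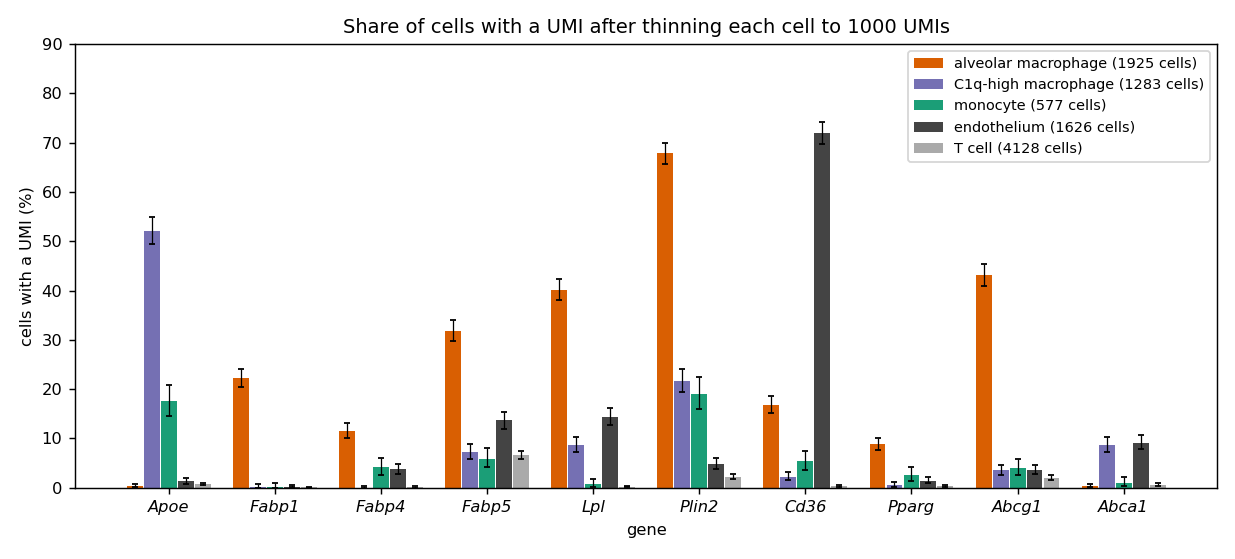
Percent of cells with a UMI (vertical) of each gene (horizontal) after thinning each cell to 1000 UMIs, in the 4 main classes and in T cells, with exact binomial 95% intervals. Plin2 in alveolar macrophages (67.9%), Apoe in C1q-high macrophages (52.1%) and Cd36 in endothelium (72.0%) stand highest.

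Whether the genes marked the same alveolar macrophages was examined by splitting the cells at 1000 UMIs on Fabp1 or Fabp5, splits that were chosen after the values were seen. Alveolar macrophages with a Fabp1 UMI (428 cells) more often held Lpl, 55.6% (50.8 to 60.4) against 35.8% (33.4 to 38.3), and Abcg1, 51.2% against 40.7%, and less often Fabp5, 22.2% (18.3 to 26.4) against 34.7% (32.3 to 37.1). Those with a Fabp5 UMI (614 cells) more often held Fabp4, 17.9% (15.0 to 21.2) against 8.62%, Plin2, 73.3% against 65.4%, and Cd36, 21.0% against 14.9%, and less often Lpl, 31.3% against 44.4%. The intervals of each of these pairs of shares did not overlap, while those of Plin2, Cd36, Fabp4 and Pparg by Fabp1 and of Abcg1 and Pparg by Fabp5 did. These are differences between cells of 1 pooled sample, and the mouse each cell came from is not known.

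Other measures moved with these splits. Alveolar macrophage markers summed to 25005 CPM in cells with Fabp1 and 32342 CPM without it, and to 34734 CPM with and 28685 CPM without Fabp5. Median depths were 5366.5 and 5514 UMIs by Fabp1 and 5842 and 5319 by Fabp5 before thinning. The TdTomato share was 88.1% against 84.1% by Fabp1 and 78.5% against 88.0% by Fabp5. The part of these in the co-detection was not tested.

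In C1q-high macrophages, cells with Apoe (669) more often held Abca1, 13.3% (10.8 to 16.1) against 3.58% (2.26 to 5.39), and Plin2, 25.3% against 17.9%. The Lpl shares overlapped, at 8.37% (6.38 to 10.7) and 8.96% (6.82 to 11.5), as did those of Abcg1, at 4.48% and 2.44%. Cells with Apoe also carried more C1q-high macrophage markers, 19131 against 12781 CPM, and fewer mature dendritic cell markers, 465 against 1624 CPM, and fewer type 2 dendritic cell markers, 689 against 1202 CPM. Stromal markers were 24.6 against 3.47 CPM, alveolar macrophage markers 146 against 398 CPM and median depth 3448 against 4478.5 UMIs before thinning. The part of these in the Abca1 difference was not tested.

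**Figure D5:**
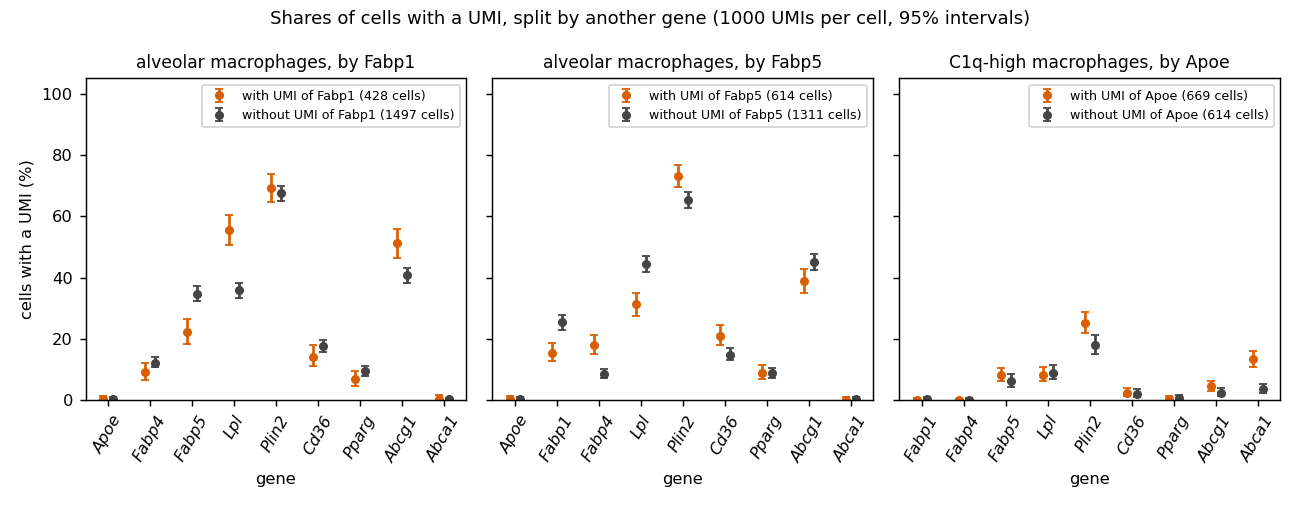
Percent of cells with a UMI (vertical) of each other gene (horizontal) in alveolar macrophages with or without Fabp1 (left) or Fabp5 (middle) and in C1q-high macrophages with or without Apoe (right), at 1000 UMIs per cell with 95% intervals. Lpl rises with Fabp1 (55.6% against 35.8%) and falls with Fabp5 (31.3% against 44.4%), and Abca1 rises with Apoe (13.3% against 3.58%).

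The wider lipid pathway was described through 5 lists of 55 further genes. In alveolar over C1q-high macrophages, 19 of 41 with enough UMIs were higher in alveolar macrophages and 3 lower, against 16.0% and 8.52% of all genes, with a median log2 ratio of 0.94 against 0.27 for all genes. Of 8 genes for droplet and lysosomal lipolysis, 6 were higher, including Mgll, monoglyceride lipase (280.0 against 4.54 CPM, log2 5.95, 5.37 to 6.59) and Lipa, lysosomal acid lipase (424 against 79.7 CPM, log2 2.41). The 1 gene of that list that was lower was Lipe, hormone-sensitive lipase (7.07 against 17.4 CPM), named after its values were seen. Of 10 storage genes with enough UMIs, 6 were higher, including Hilpda, which inhibits droplet lipolysis (380.3 against 75.1 CPM), and Cidec, a droplet fusion protein (23.2 against 0.38 CPM). Of 12 uptake genes, 5 were higher, led by Olr1, an oxidized LDL receptor (332 against 4.92 CPM, log2 6.07).

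Of the nuclear receptors, 2 were past 2-fold, both higher in alveolar macrophages. Rxra, the partner of PPARγ, was 80.1 against 17.2 CPM (log2 2.22), and Nr1h3, the cholesterol sensor LXRα, 18.6 against 3.41 CPM (log2 2.45). Mylip, which degrades the LDL receptor, was lower in alveolar macrophages, at 17.9 against 59.4 CPM (log2 -1.73), and so was Pltp, a phospholipid transfer protein of the apolipoprotein and efflux list, at 56.6 against 148 CPM (log2 -1.39). In the list of nuclear receptors and co-regulators, 2 of 7 tested were higher, 1 lower and 4 within 2-fold, counts close to the 16.0% and 8.52% of all genes.

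Of 13 uptake genes tested against endothelium, 8 were higher in alveolar macrophages and 2 in endothelium, Gpihbp1 and Scarb1. Gpihbp1, which anchors LPL on the capillary wall, had 1446 CPM in endothelium and 0.94 CPM in alveolar macrophages (log2 -10.58, -11.64 to -9.70). Scarb1, a high-density lipoprotein receptor, had 226 CPM against 74.5 CPM (log2 -1.60), and Pltp, of the apolipoprotein and efflux list, 755 CPM against 56.6 CPM (log2 -3.74). Lrp1, a remnant receptor, and Trem2, a lipid-sensing receptor, were higher in alveolar macrophages, at 326 against 4.51 CPM and 220.4 against 5.84 CPM. Of 42 list genes with enough UMIs in this pair, 25 were higher in alveolar macrophages, against 18.0% of all genes, and 6 in endothelium, against 21.7%, with a median log2 ratio of 1.76 against -0.14 for all genes.

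Among the other pairs, 20 of 41 list genes were higher in alveolar macrophages than in monocytes and 4 lower, against 22.1% and 8.60% of all genes. C1q-high macrophages and monocytes differed in 6 genes each way of 35, against 12.1% and 8.99%. C1q-high macrophages exceeded endothelium in 11 of 34, against 13.5%, and fell below it in 7, against 27.7%. Monocytes exceeded endothelium in 11 of 33, against 12.9%, and fell below it in 8, against 29.2%. G0s2, an inhibitor of droplet lipolysis, was higher in monocytes than in C1q-high macrophages, at 63.6 against 2.08 CPM (log2 -4.93 for C1q-high macrophages over monocytes). G0s2 was also among the genes most raised in neutrophils. Neutrophil markers summed to 560 CPM in monocytes and 279 CPM in C1q-high macrophages. The part of neutrophil RNA in the G0s2 difference was not tested. Soat1, which esterifies cholesterol for storage, had 274 CPM in alveolar macrophages, 179 in C1q-high macrophages and 262 in monocytes, against 23.1 in endothelium.

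To place each gene among all others, its log2(CPM + 10) over the 19 classes was correlated with that of 6653 genes. The points share 1 pooled sample and unequal depths, so these are descriptions. Fabp1 was most like Wfdc10, Htr2c and Vstm2a (Pearson r 0.97 for each), all highest in alveolar macrophages. Since Fabp1 had 369 CPM there and at most 12.6 CPM in any other class, its correlations rest mostly on the alveolar macrophage point. Lpl was most like Adarb1 (0.95), Afap1 (0.87) and Pros1 (0.87), Plin2 like Vps26a (0.86), Il18 (0.85) and Rragc (0.85), and Cd36 like Smagp (0.89), Ica1 (0.88) and Pkp4 (0.87).

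The regulator and transporters had likewise distinct neighbours. Pparg was most like Ddhd1 (0.83), Lilra5 (0.82) and Lipa (0.81), Abcg1 like Tlr8 (0.86), Tfec (0.82) and Hal (0.82), and Abca1 like Fnta, Gkap1 and Sash1 (0.82 each). Apoe was most like the stromal genes Col14a1 (0.80), Saa3 (0.80) and Htra3 (0.79). Fabp4 (Ttc7b, Nras and Snrnp200, 0.77 each) and Fabp5 (Smurf1 0.73, Slc33a1 0.72, Nudt9 0.71) had no neighbour as close. Among the 10 genes themselves, Fabp1 with Abcg1 (0.79), Pparg with Abcg1 (0.78) and Fabp4 with Pparg (0.77) were the most alike, and Apoe with Fabp5 (-0.20) the least.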

How the data were processed

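Single-cell libraries (10x Chromium 3′ v3) were aligned by the authors to mm10 with GFP and TdTomato added as features, and Cell Ranger (matrix header 3.0.2) gave the counts that they deposited as raw, unnormalized UMI counts per gene and cell for all 4 mice in 1 matrix. The barcodes were not used here, and 1 allele that all 4 mice share is not reported here. The study's methods filtered cells at 200 genes and at upper percentiles whose values are not given in the sources used here, and dropped non-epithelial cells with tdTomato, which were kept here.

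Cells with at least 200 genes and under the 98th percentile of genes (2713) and of mitochondrial share (13.4%) were kept. A cell was gated to 1 of 16 main classes by detecting at least 3 of that class's 10 markers and at least 2 more than of any other list, and to a subclass by at least 2 markers with a lead of 1. Of the kept cells, 3617 passed no gate. Doublets were kept in the values as reported. Scrublet marked 208 of 20299 cells (1.02%) and was used as an alternative. The members and lists were chosen with earlier results of these data known.

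UMIs were summed per class as CPM, with exact Poisson intervals, exact conditional intervals of ratios and Clopper-Pearson intervals of shares at 95%, all covering counting error only. A gene counted as higher at a ratio of 2 or more with at least 50 UMIs over both classes. For a share of 0, 3 counts set the limit. Shares used cells thinned to 1000 UMIs with seed 7. The text names all 10 genes, of each lipid list up to 4 genes past the fold with the most CPM in the pair described, and per gene the 3 most correlated of 6653 genes. The ratio code was checked on counts simulated with Poisson counting error only, for alveolar over C1q-high macrophages (9655 genes). It called 97% of genes changed by a log2 of 1.5 and 100% of those changed by 3. There, 95.6% of intervals covered the true value. The simulation held no further spread between cells or mice, so it does not give the coverage in the measured data. Positions are from GENCODE vM21 and promoters from RefSeq GRCm38.p6. Python 3.11.15, numpy 2.4.6, scipy 1.17.1, pandas 2.3.3, scanpy 1.11.5, R 4.3.3 and Seurat 5.3.0 were used. Alternatives changed the gate, the filters, the doublet and tdTomato treatment, the scaling, the ratio and the thinning.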

Additional observations from a re-analysis of the deposited data

How the results depend on the processing

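Of the 53 ratios past 2-fold among the 4 main classes and the subclasses, 49 to 53 kept their direction and stayed past 2-fold in each alternative that gave a value for all of them. Louvain clusters in place of the gates kept 46 of 47, cells without a TdTomato UMI 50 of 51, and cells without markers of another of these classes 49 of 52. These counts do not follow ratios that were within 2-fold as reported. In the last of these settings some of those passed 2-fold. Examples are Plin2 of non-classical over classical monocytes (log2 1.27) and Lpl of C1q-high macrophages over endothelium (log2 -1.09). Some of these settings used quite different cells. The TdTomato setting left 110 of 1972 alveolar macrophages. The mixed-marker setting left 621 of them and 417 of 1295 C1q-high macrophages. Gated cells made up 46.4% of the C1q-high macrophage cluster and 46.7% of the monocyte cluster, which held 97.9% and 97.3% of the gated cells. With Louvain clusters the Fabp5 log2 ratio of C1q-high macrophages over endothelium turned from -1.20 to 0.088. Per cell instead of per total, a scaling added after seeing the data because depth differs between classes, the Apoe log2 ratio of alveolar macrophages over endothelium turned from -1.02 to 0.34. It lay between -0.44 and -0.90 in 5 other alternatives and at -0.999 without the UMIs of the gate markers. Per cell, the genes higher in C1q-high macrophages than in endothelium rose from 2 to 4 and those higher in endothelium went from 4 to 2, with log2 ratios of -0.58 for Cd36 against monocytes and -0.23 for Fabp5 and -0.62 for Pparg against endothelium. Without cells that held a TdTomato UMI, 1 gene in place of 3 was counted as higher in monocytes than in C1q-high macrophages. That count also needs at least 50 UMIs over both classes. The only ratio that fell under 2-fold in this setting was Plin2 of aerocyte-like over general capillary cells. With no minimum of UMIs, 2 genes in place of 1 were higher in monocytes than in alveolar macrophages. A ratio of 4 left 2 of 4 genes higher in endothelium than in C1q-high macrophages, 1 of 2 higher in monocytes than in endothelium and 3 of 5 higher in endothelium than in monocytes. The Plin2 log2 ratio of aerocyte-like over general capillary cells, 1.39, lay between 0.32 and 0.996 in 7 alternatives. The cause of these changes was not tested. The class with the highest thinned share was the same at 500 UMIs, 2000 UMIs and without thinning for 9 of 10 genes, Abca1 being the exception. The alternatives by top Scrublet score, by totals without gate markers and by mixed-marker cells were likewise chosen after seeing the data. No paired analysis was possible because the matrix and feature table used here do not map cells to mice and no test was run, and for the same reason no replicate could be left out.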

Other observations

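Of 1925 alveolar macrophages with at least 1000 UMIs, 1636 (85.0%) held a UMI of the tdTomato reporter after thinning, against 96.3% of ATII-like epithelium and 13.3% of T cells. In the alveolar macrophages with it, Fabp1 was 389 CPM against 256 CPM in those without, and Fabp5 was 547 against 877 CPM. Fabp4 was 153 against 207 CPM, while Lpl (683 against 602 CPM) and Plin2 (1206 against 1344 CPM) differed by less. The summed alveolar macrophage markers were 29362 against 38049 CPM. The part of the reporter, the mouse and the markers in these values was not tested.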
